A study of Mus musculus with 21 samples.

Results

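Mitochondria carry ribosomes of their own, and their proteins are encoded in the nucleus by genes named *Mrpl* (large subunit) and *Mrps* (small subunit). Such ribosomes translate the few mRNAs of the mitochondrial genome, all of which code for subunits of the respiratory chain and the ATP synthase. Some of the proteins have relatives in bacterial ribosomes and others are particular to mitochondria. Kidney tubule cells depend heavily on respiration, whereas podocytes, the cells that cover the glomerular capillaries, hold fewer mitochondria.

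The genes described are all those whose mouse symbol is *Mrpl* or *Mrps* followed directly by a digit, pseudogenes left out, with at least 10 raw counts over all libraries. This rule gave 78 of the 27179 genes counted, and none of the family's symbols fell under the threshold. They comprised 51 proteins of the large subunit, 26 of the small subunit, and *Mrps36*, whose product is now assigned to the 2-oxoglutarate dehydrogenase complex. Symbols do not always give the subunit, since the products of *Mrps30* and *Mrps18a* sit in the large one.

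The libraries were made from mRNA of podocyte fractions, which were pulled from digested kidney cortex with nephrin antibodies and magnetic beads, 1 library for each mouse. All mice were male wildtype C57BL/6J. The young group held 6 untreated mice of 4 months. Of the middle-aged mice (19.5 months), 7 had been treated with saline and 8 with NLRP3i. NLRP3i stands for MCC950, an inhibitor of the NLRP3 inflammasome, injected at 10 mg/kg for 6 weeks, with the saline group given the vehicle alone.

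Depth and age went together, with total counts per library from 27375870 to 36827823 in young, from 45772937 to 84876399 in saline and from 35440472 to 58247271 in NLRP3i libraries. Genes of the mitochondrial genome took means of 69.3%, 69.6% and 56.4% of these counts. The other counts ran from 5804891 to 13269290 in young, from 14362648 to 27818925 in saline and from 16118731 to 28569185 in NLRP3i libraries. Podocyte markers were present in all libraries, and 14 of 15 were lower in saline than in young libraries while 5 of 15 were higher in NLRP3i than in saline libraries. The summed level of 15 proximal tubule markers ranged from 2180 to 8113 normalised CPM in young, from 2275 to 5270 in saline and from 3341 to 9528 in NLRP3i libraries, all above the podocyte markers' highest sum of 1864, so the fractions were mixtures. In such bulk samples, fewer cells of a type and less RNA per cell cannot be told apart.

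The genes lie on 17 chromosomes, with 11 on chromosome 11 and 8 on chromosome 17. RefSeq promoters (GRCm38.p6, from 250 bases before to 50 after the start) were held for 69 of the 78. On either strand, 8 of these 69 carried the core word of the NRF1 motif (GCATGCGC), 12 that of the ETS family (CCGGAAGT) and 12 that of YY1 (AAGATGGC), factors known for many nuclear genes of mitochondria. The shares were 11.6%, 17.4% and 17.4%, beside 3.05%, 4.31% and 3.19% of the 27025 genes with a promoter and 5.23%, 7.97% and 4.66% of the 12136 genes with a promoter that were also tested for expression. At least 1 of the 3 words stood in 42.0% of the members, in 34.4% of 32 nuclear genes of respiratory complex I, in 31.1% of 61 cytosolic ribosomal protein genes and in 16.6% of the genes tested. The median GC content of the members' promoters was 58.0%, against 60.0% for the genes tested. These matches are a description of letters and say nothing of binding.

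The promoters below show 1 member for each word, the member of the largest rise under NLRP3i, and a window that holds the starts of a pair of members. The words are in capitals. *Mrpl10* (chr11:97041332-97041631, plus strand) holds the NRF1 word 134 bases before the start, *Mrpl3* (chr9:105053018-105053317, plus strand) the ETS word 19 bases before it, and *Mrps24* (chr11:5707652-5707951, minus strand) the YY1 word 36 bases after it. The window of *Mrps21* (chr3:95871465-95871764, minus strand) holds none of the words. *Mrps11* (chr7:78782881-78783180, plus strand) and *Mrpl46* are transcribed away from each other from starts 42 bases apart, and the window holds a YY1 word upstream of the start of *Mrps11*.
Mrpl10: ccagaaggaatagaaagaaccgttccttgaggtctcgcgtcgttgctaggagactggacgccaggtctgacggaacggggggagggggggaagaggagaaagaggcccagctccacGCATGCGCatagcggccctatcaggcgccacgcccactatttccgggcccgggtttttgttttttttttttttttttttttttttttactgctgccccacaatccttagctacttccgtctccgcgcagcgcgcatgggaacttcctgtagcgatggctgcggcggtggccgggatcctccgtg
Mrpl3: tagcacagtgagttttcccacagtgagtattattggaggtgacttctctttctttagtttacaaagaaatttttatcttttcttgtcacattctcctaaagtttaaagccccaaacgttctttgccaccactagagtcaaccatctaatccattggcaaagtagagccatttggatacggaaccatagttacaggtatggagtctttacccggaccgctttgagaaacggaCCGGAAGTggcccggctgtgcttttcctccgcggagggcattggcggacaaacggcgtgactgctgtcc
Mrps24: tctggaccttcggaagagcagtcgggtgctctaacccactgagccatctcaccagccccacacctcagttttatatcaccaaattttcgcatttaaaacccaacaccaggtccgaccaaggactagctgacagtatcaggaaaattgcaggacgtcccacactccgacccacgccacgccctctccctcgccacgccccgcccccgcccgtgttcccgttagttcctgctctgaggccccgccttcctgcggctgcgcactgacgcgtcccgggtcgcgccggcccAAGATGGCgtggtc
Mrps21: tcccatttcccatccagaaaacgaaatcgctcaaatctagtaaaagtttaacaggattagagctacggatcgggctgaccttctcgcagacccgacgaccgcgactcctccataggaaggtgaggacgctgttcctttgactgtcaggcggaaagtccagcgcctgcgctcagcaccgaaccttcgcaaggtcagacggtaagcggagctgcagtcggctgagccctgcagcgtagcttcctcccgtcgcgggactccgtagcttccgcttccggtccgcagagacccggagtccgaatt
Mrps11: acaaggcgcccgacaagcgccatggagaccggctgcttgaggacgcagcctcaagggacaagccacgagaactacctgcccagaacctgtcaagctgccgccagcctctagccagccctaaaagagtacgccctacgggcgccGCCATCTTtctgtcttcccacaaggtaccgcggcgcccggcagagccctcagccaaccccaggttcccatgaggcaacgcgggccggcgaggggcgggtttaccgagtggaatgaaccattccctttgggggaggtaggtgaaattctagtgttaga

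Such arrangements were not limited to this pair. In 26 of the 69 members (37.7%) another gene started on the opposite strand within 1 kb upstream, against 18.1% of the genes tested. In NLRP3i against saline libraries 12 of these 26 members and 6 of their 26 partners were called higher (11.9% of all genes tested were), with medians of 0.29 and 0.06 on the log2 scale. In NLRP3i against young libraries 21 and 9 were (21.8% of all genes). In saline against young libraries 5 of the partners were higher (12.2% of all genes), with a median of 0.15 beside 0.08 for the members, and the 3 members called with age are not among these 26. *Mrps11* and *Mrpl46* are each counted as a member and as a partner. The partners included *Sars2*, the mitochondrial seryl-tRNA synthetase beside *Mrps12*, *Twnk*, the mitochondrial DNA helicase beside *Mrpl43*, and *Ndufb5*, a complex I subunit beside *Mrpl47*.

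Members differed widely in level. A level per length is given here as normalised CPM (counts scaled to library size with TMM, mitochondrial reads included) divided by the length of the merged GENCODE exons in kb. Its median over the 78 members was 3.55 CPM per kb, with quartiles of 1.59 and 7.93. The highest were *Mrpl34* at 27.5, *Mrps6* at 22.6 and *Mrpl54*, a protein of the ribosome's stalk region, at 19.4 CPM per kb. The lowest were *Mrpl36* at 0.024, *Mrpl23*, from the rim of the exit tunnel, at 0.381 and *Mrps5* at 0.410 CPM per kb, and long annotated exons lower such values. The level per length had quartiles of 1.91 and 7.92 CPM per kb over the 51 genes of the large subunit and of 1.28 and 8.19 over the 26 of the small subunit, so the subunits overlapped.

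*Mrpl36* was the only member near the threshold of the rule, with 32 counts in all. It had 2 counts in the young group, from 1 of 6 libraries, 9 in the saline group, from 4 of 7 libraries, and 21 in the NLRP3i group, from 5 of 8 libraries. It did not pass the filter on low counts, so the tests cover 77 of the 78 members. The next lowest were *Mrps18c* with 865, *Mrps18b* with 977 and *Mrpl21* with 1136 counts in total, and the median member had 11009.

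The summed counts of the 78 members made up a small share of each library. Outside the mitochondrial genes, the share was 0.197%, 0.235% and 0.263% (lowest, median and highest library) in young, 0.202%, 0.235% and 0.254% in saline, and 0.229%, 0.269% and 0.302% in NLRP3i libraries. The means were 0.232% ± 0.023 (SD, n = 6), 0.228% ± 0.018 (SD, n = 7) and 0.267% ± 0.029 (SD, n = 8). The saline libraries lay within the range of the young ones, and the NLRP3i libraries reached above both while overlapping them at their lower end.

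**Figure D1:**
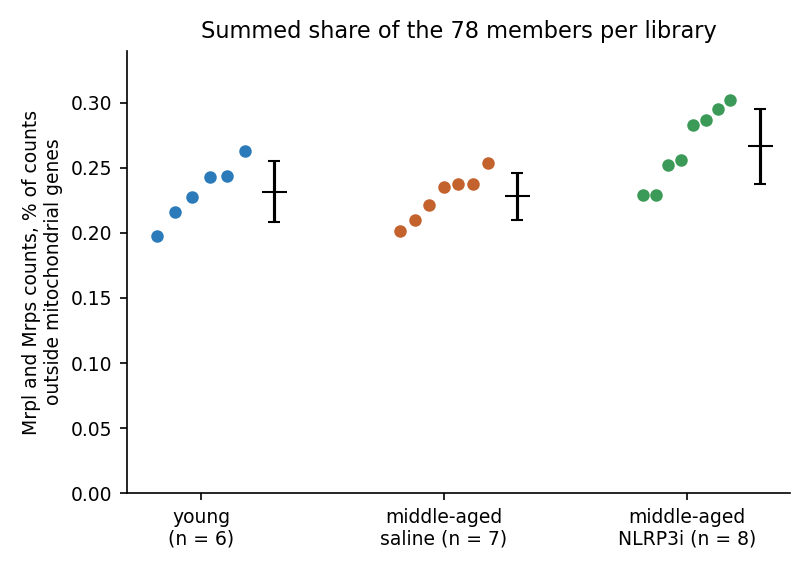
Summed counts of the 78 *Mrpl* and *Mrps* genes as a percentage of counts outside mitochondrial genes (vertical axis, from 0), with 1 point per library, sorted by value within each group, and the mean with SD beside the points. Young (mean 0.232%) and saline (mean 0.228%) libraries overlap fully, and the NLRP3i libraries have a mean of 0.267%.

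The first comparison sets middle-aged saline-treated mice against young untreated ones. Age and the saline injections cannot be told apart in it, so "with age" is used in this text only as its short name. Very little changed in this family: 3 of 77 members were higher in middle-aged saline than in young podocyte fractions and 0 were lower (edgeR's quasi-likelihood test, Benjamini-Hochberg adjusted p under 0.05 over all 16377 genes tested). That is 3.90% of the members, where 12.2% of all genes tested were called higher and 12.4% lower. The median log2 fold change of the members was 0.06, beside 0.02 for all genes tested, and 46 of the 77 were above 0. At an unadjusted p under 0.05, 8 members were higher and 1 lower, and DESeq2 called 3 higher and 1 lower, the latter being *Mrpl35*. For no member were all saline libraries above all young ones, as they were for 4.51% of all genes.

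The 3 members that rose with age all belong to the large subunit. *Mrpl52* (chr14:54426909-54429750, GRCm38), whose product lies in the central protuberance, ranged from 2.53 to 4.35 normalised CPM in young libraries (median 2.998) and from 4.01 to 5.11 in saline libraries (median 4.29), with a log2 fold change of 0.44 ± 0.12 (SE, adjusted p = 0.0126). The groups overlapped, as 3 of 7 saline libraries exceeded the highest young one. *Mrpl24*, from the rim of the exit tunnel, ranged from 10.7 to 13.5 CPM in young (median 12.3) and from 13.4 to 15.7 in saline libraries (median 14.4), a difference of 0.23 ± 0.07 (adjusted p = 0.0223). Here 6 of 7 saline libraries stood above every young one. On the genome, 38.1% of the annotated exon bases of *Mrpl24* are shared with *Rrnad1* on the opposite strand, and whether the counting used strand is not given in the sources used here. *Mrpl33* was 0.32 ± 0.11 higher (adjusted p = 0.0466), from a median of 8.22 to 10.5 CPM, and held this call in 7 of 21 fits that each left out 1 library. *Mrpl52* and *Mrpl24* held theirs in all 21. With the podocyte score as a covariate all 3 lost the call, and *Mrpl24* and *Mrpl33* turned to -0.00128 and -0.21. In that fit only 14 of all 16377 genes were called higher. The call was also lost by *Mrpl24* and *Mrpl33* in libraries thinned to equal depth. *Mrpl33* lost it as well with DESeq2 size factors in edgeR, without the filter on low counts and with replicate number in the fit. It thus kept its call in 5 of 10 alternative settings, *Mrpl24* in 8 and *Mrpl52* in 9.

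Some members of low count had larger differences that did not pass the test. The largest, 0.73 ± 0.32, was that of *Mrps18c* (adjusted p = 0.102), followed by *Mrpl21* with 0.48 ± 0.22 (adjusted p = 0.113) and *Mrpl23* with 0.45 ± 0.18 (adjusted p = 0.0718). At the other end stood *Mrpl35* with -0.28 ± 0.12 (adjusted p = 0.0854), whose libraries ranged from 7.79 to 12.3 CPM in young and from 6.60 to 10.96 in saline mice. *Mrpl35* was called lower when young replicate 2, young replicate 5 or saline replicate 1 was left out, *Mrps14* when young replicate 2 was, and *Mrpl46* when young replicate 4 was. The count of members called higher was 6 without young replicate 1.

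The second comparison sets NLRP3i-treated against saline-treated middle-aged mice. In these mixed fractions, changes within cells and changes in the share of cell types cannot be told apart. A majority of the family was higher: 44 of 77 members (57.1%) rose in NLRP3i against saline libraries, where 11.9% of all genes tested did. No member was lower by edgeR's quasi-likelihood test, at an unadjusted p under 0.05 or by DESeq2, while 4.86% of all genes were called lower. The median log2 fold change of the members was 0.30, a factor of 1.23, beside 0.00 for all genes, and 75 of the 77 differences were above 0, beside 50.5% of all genes. The single differences were small, since the called ones ran from 0.23 to 0.65 and 2 members exceeded a factor of 1.5. DESeq2 called 45 members, among them all 44. The members' count fell to 26 without saline replicate 3 and to 27 without saline replicate 4. Over all genes tested the count fell as well, from 1957 to 1149 and 1008. After libraries were thinned to equal depth 27 members were called, of which 25 were among the 44, beside 1109 of 14806 genes. With the summary score of 15 proximal tubule markers as a covariate 0 members were called, with a median of 0.10, beside 431 of 16377 genes. Of these 15 markers 9 were themselves higher in NLRP3i than in saline libraries.

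**Figure D2:**
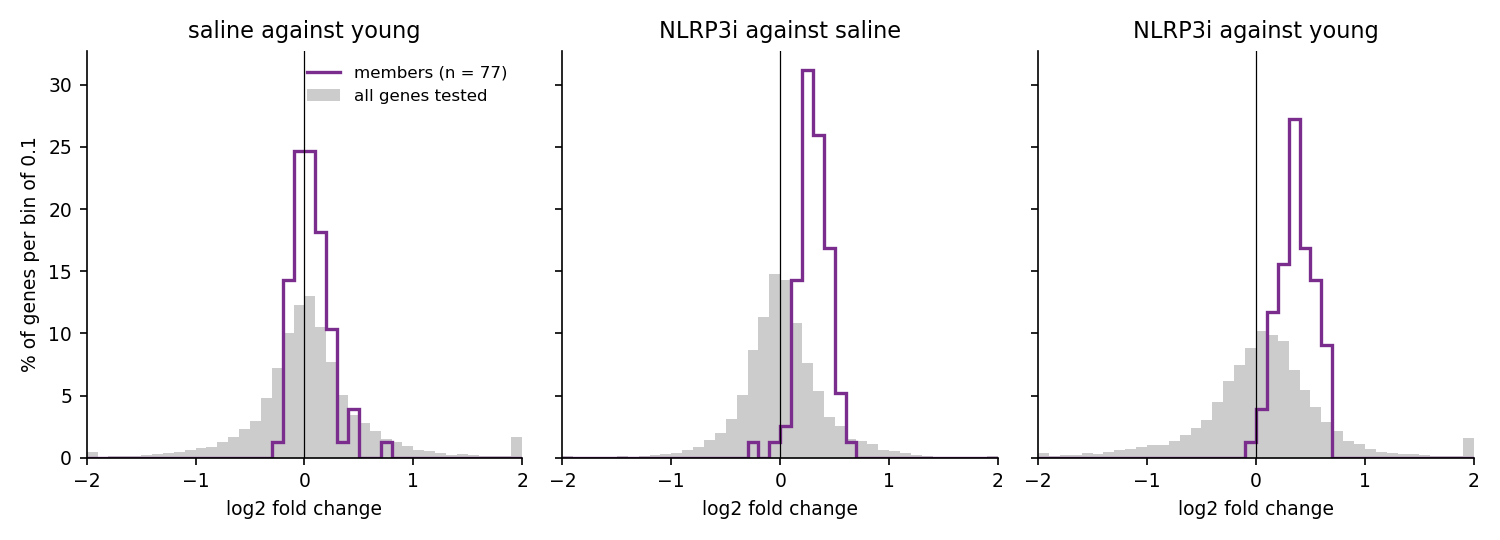
Distribution of log2 fold changes in the 3 comparisons, in bins of 0.1 (horizontal axis, values beyond 2 gathered in the outermost bins), as a percentage of genes (vertical axis) for all 16377 genes tested (grey) and the 77 members tested (purple line). The members lie around 0 in saline against young (median 0.06), and to the right of the other genes in NLRP3i against saline (median 0.30) and NLRP3i against young (median 0.38).

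*Mrps21* (chr3:95862634-95871514, GRCm38), which encodes a small-subunit protein with a bacterial relative, showed the largest rise. It ranged from 7.65 to 11.01 normalised CPM in young (median 8.79), from 6.91 to 9.93 in saline (median 9.09) and from 10.6 to 17.5 in NLRP3i libraries (median 13.7). All 8 NLRP3i libraries were above all 7 saline libraries, and the log2 fold change was 0.65 ± 0.11 (adjusted p = 0.00172). *Mrpl34* (chr8:71464926-71465753, GRCm38), the member of the highest level per length, ranged from 11.7 to 17.3 CPM in saline and from 14.2 to 26.2 in NLRP3i libraries, a rise of 0.59 ± 0.13 (adjusted p = 0.00746). In *Mrpl34* the groups overlapped, with 5 of 8 NLRP3i libraries above the highest saline one.

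*Mrpl12* (chr11:120484637-120488754, GRCm38), for the stalk protein that recruits translation factors and has also been reported to bind the mitochondrial RNA polymerase, ranged from 5.18 to 9.05 CPM in saline (median 7.39) and from 8.30 to 14.9 in NLRP3i libraries (median 10.8). Its rise was 0.58 ± 0.13 (adjusted p = 0.00717), and the young libraries, from 5.69 to 9.13 CPM, lay where the saline ones did. *Mrpl50*, a large-subunit protein particular to mitochondria, rose by 0.52 ± 0.13 (adjusted p = 0.0113), from a median of 19.0 to 28.6 CPM. *Mrps36*, the dehydrogenase subunit that carries a ribosomal name, rose by 0.56 ± 0.17 (adjusted p = 0.0335), and held this call in 12 of 21 fits that each left out 1 library.

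Among the members whose NLRP3i and saline libraries did not overlap were also *Mrpl20* and *Mrps24*, so that 3 of 77 members stood fully apart, where 1.15% of all genes did with NLRP3i higher. *Mrpl20* ranged from 9.19 to 12.8 CPM in saline and from 13.3 to 18.5 in NLRP3i libraries, a rise of 0.48 ± 0.10 (adjusted p = 0.00662). *Mrps24* ranged from 11.9 to 15.01 CPM in saline and from 15.04 to 20.04 in NLRP3i libraries, with a rise of 0.38 ± 0.07 (adjusted p = 0.00343). The 2 groups of *Mrps24* thus touched without crossing, and 17.1% of its exon bases are shared with *Urgcp* on the same strand. Over the 78 members, 22 shared exon bases with another gene, and 6 shared over 20% of theirs. Among these 6 were *Mrps25* with 75.6% (*Nr2c2*) and *Mrpl43* with 27.5% (*Twnk*), on opposite strands. How such sharing affects the counts was not tested.

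Not all abundant members followed. *Mrps6*, a small-subunit protein of the second highest level per length, ranged from 32.2 to 39.2 CPM in saline and from 27.3 to 43.4 in NLRP3i libraries, with a difference of -0.01 ± 0.11 (adjusted p = 0.97). Its young libraries ran from 25.7 to 43.3 CPM, so the 3 groups overlapped throughout. On the genome, 10.4% of the exon bases of *Mrps6* are shared with *Slc5a3* on the same strand. *Mrps18c* had the only other negative difference, -0.24 ± 0.28 (adjusted p = 0.591), on libraries with between 0.194 and 1.44 CPM.

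**Figure D3:**
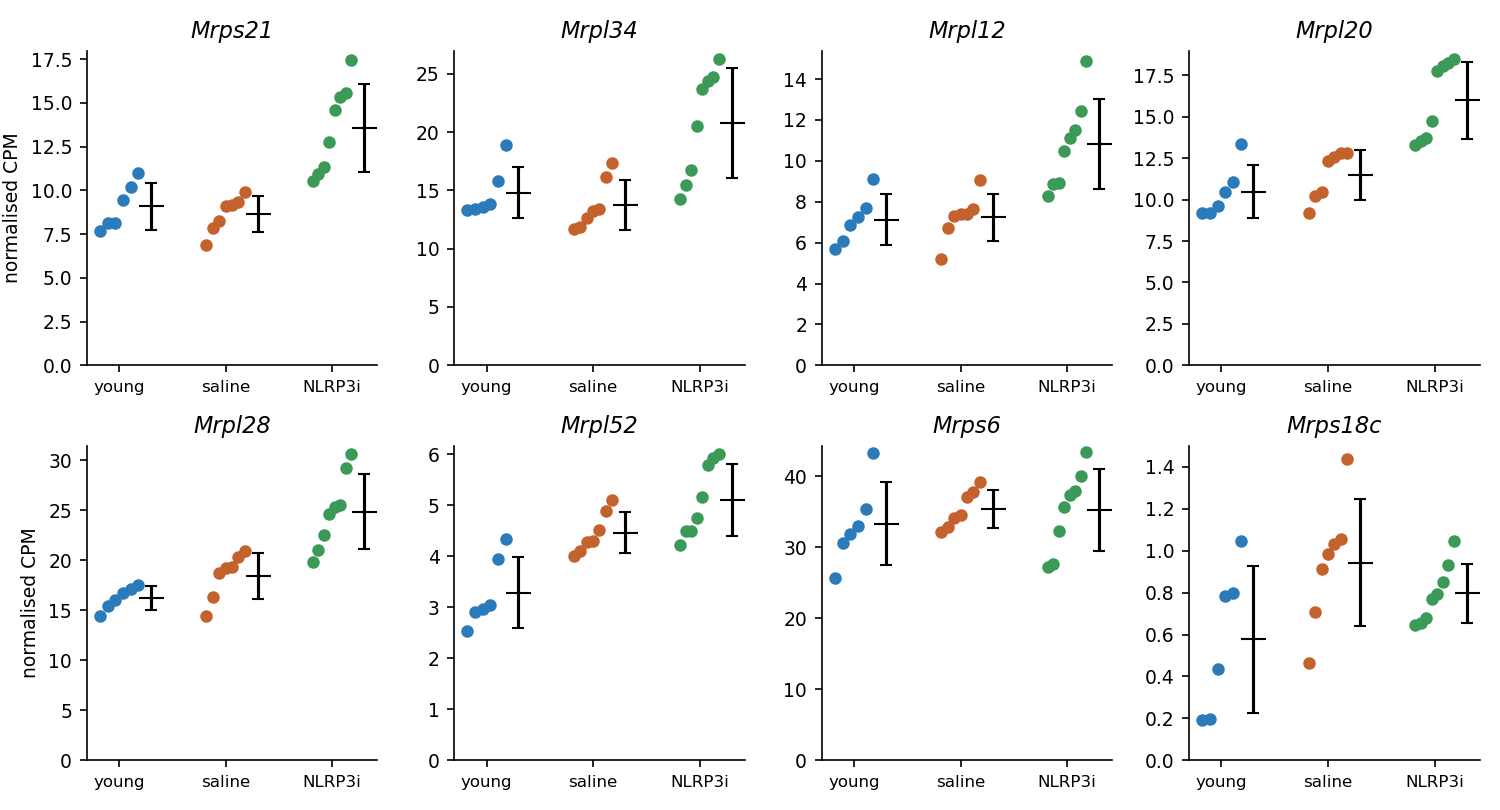
Normalised CPM (vertical axes, from 0) of 8 members in young (6), saline (7) and NLRP3i (8) libraries, with 1 point per library, sorted by value within each group, and the mean with SD beside the points. In *Mrps21* and *Mrpl20* all NLRP3i points lie above all saline points, in *Mrpl28* all lie above all young points, *Mrpl52* is also higher in saline than in young libraries, and in *Mrps6* the 3 groups overlap.

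Genes of the *Mrps18* trio encode relatives of 1 bacterial protein, and differences between them were not tested. *Mrps18a*, of the large subunit, ranged from 9.24 to 11.6 CPM in saline and from 10.6 to 16.5 in NLRP3i libraries and rose by 0.38 ± 0.10 (adjusted p = 0.0135), with 7 of 8 NLRP3i libraries above every saline one. *Mrps18b* and *Mrps18c*, both of the small subunit, had levels near 1 CPM, and their differences of 0.04 ± 0.20 (adjusted p = 0.923) and -0.24 ± 0.28 did not pass the test. With these SEs a difference of the size found in *Mrps18a* would not have passed the test. *Mrps30*, the other gene of misleading name, differed by 0.29 ± 0.10 (adjusted p = 0.0507).

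Within the ribosome, some members of both subunits and of each site listed here were called higher in NLRP3i against saline libraries. Of all genes tested, 11.9% were. Of the large subunit 29 of 50 rose (median log2 fold change 0.30) and of the small subunit 14 of 26 (median 0.31). Of proteins classed as shared with bacteria 22 of 45 rose (median 0.27), and of those classed as particular to mitochondria 21 of 31 (median 0.34). The latter class holds *Mrps18a* and *Mrps18b*, although these too are relatives of a bacterial protein. In the stalk region 4 of 5 rose, namely *Mrpl10*, *Mrpl12*, *Mrpl53* and *Mrpl54*, by 0.27 to 0.58, while *Mrpl11* differed by 0.23 ± 0.09 (adjusted p = 0.0772). At the exit tunnel, where the new chain leaves, 3 of 8 rose (median 0.27), and in the central protuberance 4 of 9 (median 0.28). *Mrpl10* lost its call without saline replicate 3, *Mrpl53* without saline replicate 3 or 4, and *Mrpl54* kept it in 10 of 21 such fits. Differences between these subgroups were not tested.

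Calls in NLRP3i against saline libraries were also counted by level, where 11.9% of all genes tested were called higher. All genes were not split by level, so whether calls rise with level in the same way outside the family was not tested. Of the 38 members above the median level 25 were called, and over all 38 the median log2 difference was 0.34 and the median SE 0.10. Of the other 39 there were 19, with medians over the 39 of 0.27 and 0.11. The part of depth in these calls was not tested. Among the 10 members of the lowest CPM, 3 were called, with SEs between 0.11 and 0.28 on the log2 scale.

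Both age and treatment separate NLRP3i from young libraries, and this comparison shares its libraries with the other two. In it 60 of 77 members (77.9%) were higher, against 21.8% of all genes tested. By edgeR's quasi-likelihood test 0 were lower, as at an unadjusted p under 0.05 and by DESeq2, while 16.5% of all genes were called lower. The median log2 fold change was 0.38, beside 0.08 for all genes, and 76 of the 77 differences were above 0, with the exception of *Mrpl1* at -0.03. DESeq2 called 53 members higher. The count was 40 without young replicate 4, beside 2556 of 16506 genes. It was 23 with the proximal tubule score and 0 with the podocyte score as a covariate, beside 3457 and 138 of 16377 genes.

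*Mrps28* had the largest rise, 0.68 ± 0.12 (adjusted p = 0.000289), from 4.11 to 6.12 CPM in young (median 5.20) to 5.87 to 10.8 in NLRP3i libraries (median 8.43). *Mrpl21* rose by 0.67 ± 0.21 (adjusted p = 0.0171), with 1 young library at 1.46 CPM and the others between 0.563 and 0.796, and its call was lost without young replicate 2, 3 or 4. *Mrps35* rose by 0.66 ± 0.14 (adjusted p = 0.000848) and *Mrpl52* by 0.63 ± 0.12 (adjusted p = 0.000411). *Mrpl28* ranged from 14.4 to 17.5 CPM in young and from 19.8 to 30.6 in NLRP3i libraries and rose by 0.62 ± 0.10 (adjusted p = 9.39e-05), with no overlap.

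In 5 of 77 members all NLRP3i libraries were above all young ones, beside 3.28% of all genes. They were *Mrpl28*, *Mrpl15*, *Mrpl30*, *Mrps26* and *Mrpl3*, the last with a rise of only 0.23 ± 0.07 (adjusted p = 0.0162) on young libraries between 6.20 and 7.80 and NLRP3i libraries between 7.92 and 9.24 CPM. *Mrpl3* lost this call without young replicate 2, 3 or 4. All 5 stalk genes were called higher, *Mrpl11* by 0.47 ± 0.09 (adjusted p = 0.000652) and *Mrpl12* by 0.60 ± 0.14 (adjusted p = 0.00206). Of the large subunit 43 of 50 and of the small subunit 17 of 26 were higher, beside 21.8% of all genes tested.

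Over the 3 comparisons, 39 members were higher in NLRP3i libraries against both other groups and were not called with age. Another 18 were called against young but not against saline libraries, and 5 against saline but not against young libraries, which were *Mrpl35*, *Mrpl46*, *Mrps25*, *Mrps31* and *Mrps36*. The 3 that rose with age, *Mrpl24*, *Mrpl33* and *Mrpl52*, were also higher in NLRP3i than in young libraries and were not called between the 2 middle-aged groups, where they differed by 0.10, 0.23 and 0.20. The remaining 12, among them *Mrps6*, *Mrps18b*, *Mrps18c*, *Mrps5* and *Mrps30*, were called nowhere. No member passed in opposite directions.

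Proteins of the same ribosome with other names gave similar values. *Dap3*, *Ptcd3*, *Chchd1*, *Aurkaip1* and *Gadd45gip1* had 3 of 5 higher in NLRP3i against saline libraries (median 0.31) and 5 of 5 against young libraries. Of all genes tested, 11.9% and 21.8% were. *Gadd45gip1* rose by 0.50 ± 0.13 (adjusted p = 0.0139) and *Dap3* by 0.31 ± 0.08 (adjusted p = 0.0158) against saline. With age 0 of 5 were called by edgeR's quasi-likelihood test in either direction, at an unadjusted p under 0.05 or by DESeq2.

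Factors that build or serve the ribosome were described next. Of 24 assembly factors 5 were higher in NLRP3i against saline libraries (20.8%, where 11.9% of all genes were, median 0.15), led by *Noa1*, a GTPase of small-subunit assembly, at 0.35 ± 0.08 (adjusted p = 0.00903) and *Mrm2*, an rRNA methyltransferase, at 0.41 ± 0.11 (adjusted p = 0.0152). With age 2 of the 24 rose (8.33%, below the 12.2% of all genes tested), *Mrm1* by 0.34 ± 0.08 (adjusted p = 0.00393) and the pseudouridine synthase *Rpusd4* by 0.29 ± 0.08 (adjusted p = 0.0116). Of 15 translation factors 6 were higher in NLRP3i against saline libraries (40.0%, median 0.22). Among them were the elongation factor *Tsfm* at 0.45 ± 0.12 (adjusted p = 0.0144) and the recycling factor *Mrrf* at 0.42 ± 0.11 (adjusted p = 0.018). In NLRP3i against young libraries 10 of the 24 assembly factors (41.7%) and 2 of the 15 translation factors (13.3%) were higher, beside 21.8% of all genes.

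Of 17 mitochondrial tRNA synthetases 3 were higher with NLRP3i (17.6%, beside 11.9% of all genes, median 0.17). *Yars2* fell by 0.33 on the log2 scale with age (SE 0.10, adjusted p = 0.0239) and rose by 0.38 ± 0.09 with NLRP3i (adjusted p = 0.0125), and *Nars2* fell by 0.44 with age (SE 0.14, adjusted p = 0.0226). *Lars2* rose by 0.90 ± 0.21 (adjusted p = 0.00952), but at a mean of 328 CPM it stood far above the next synthetase, *Iars2* at 23.1 CPM, and whether all its reads came from this mRNA was not tested. Among 21 genes of mitochondrial transcription and RNA stability 3 were higher with NLRP3i (14.3%, near the 11.9% of all genes tested, median 0.10), *Lrpprc*, which stabilises mitochondrial mRNAs, at 0.39 ± 0.10 (adjusted p = 0.0148), *Twnk* at 0.38 ± 0.11 (adjusted p = 0.0257) and *Hsd17b10*, a subunit of the mitochondrial RNase P, at 0.34 ± 0.10 (adjusted p = 0.0262). In NLRP3i against young libraries 5 of the 17 synthetases (29.4%) and 4 of these 21 genes (19.0%) were higher, beside 21.8% of all genes.

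A pair of larger assemblies was set beside the family. Of 36 nuclear-encoded subunits of complex I, which the mitochondrial ribosome's products join, 1 was higher with age, 32 with NLRP3i against saline (median 0.41) and 28 against young libraries (median 0.47). Of 81 cytosolic ribosomal proteins tested, 74 were higher with age (median 0.59), 2 with NLRP3i against saline (median 0.05) and 76 against young libraries (median 0.64). Of all genes tested, 12.2%, 11.9% and 21.8% were called higher in these comparisons.

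**Figure D4:**
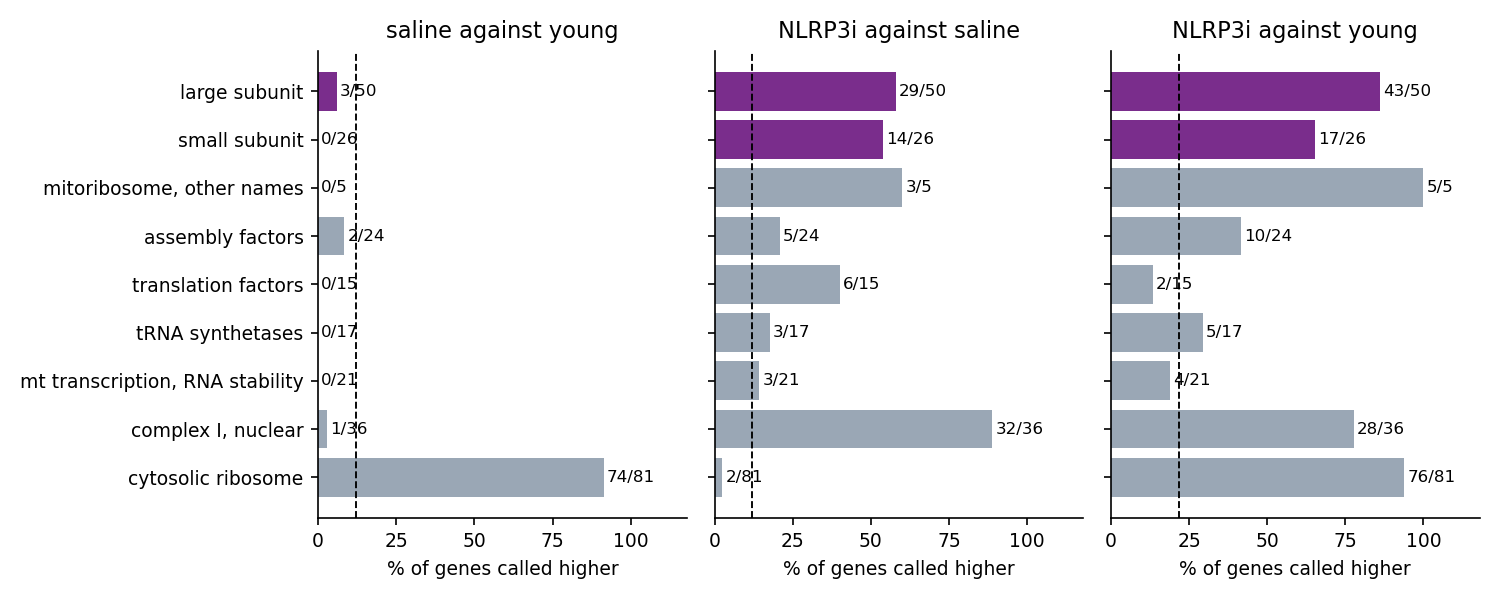
Percentage of the tested genes of each list called higher (horizontal axis, adjusted p under 0.05) in the 3 comparisons, with counts beside the bars and members of the *Mrpl* and *Mrps* family in purple. The dashed line is the percentage of all genes tested (12.2, 11.9 and 21.8). In NLRP3i against saline libraries both subunits (29 of 50 and 14 of 26) and complex I (32 of 36) lie above it, while the cytosolic ribosome (74 of 81) lies above it in saline against young.

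RNA of the mitochondrial genome went the other way. Of 15 mitochondrially encoded genes, 13 mRNAs and both rRNAs, 9 were lower in NLRP3i than in saline libraries (median -0.78) and 10 lower than in young libraries (median -0.80). *ND5*, a complex I subunit, fell by 1.04 on the log2 scale against saline (SE 0.24, adjusted p = 0.00897). The rRNAs of this ribosome, *mt-Rnr1* and *mt-Rnr2*, differed by 0.01 ± 0.25 (adjusted p = 0.977) and 0.04 ± 0.26 (adjusted p = 0.933), with the caution that mRNA libraries capture rRNA unevenly. With mitochondrial genes left out of the fit, the counts of members stayed at 3, 44 and 60.

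Members varied together from mouse to mouse. After group means were taken out, the correlation between 2 members' log2 CPM over the 21 libraries had a median of 0.54 over 2926 pairs, with quartiles of 0.36 and 0.68, and 94.9% of pairs were positive. *Mrpl12* was the most typical, with a median correlation of 0.70 with the others. *Mrps17*, a small-subunit protein, was the exception with a median of -0.19, and *Mrpl52* (0.06), *Mrps18b* (0.10) and *Mrpl3* (0.11) were loosely tied to the rest. Libraries share depth and composition, so such values are a description, and a low count lowers them.

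Markers of another cell type moved with the family. In NLRP3i against saline libraries 9 of 15 proximal tubule markers were higher (median 0.97), and none of the 15 was at 0 in any group. Within the young, saline and NLRP3i groups, the mean log2 CPM of the members had Pearson correlations of 0.86, 0.82 and 0.73 with the mean of the proximal tubule markers (Spearman 0.83, 0.57 and 0.79), which became 0.05, 0.75 and 0.52 without the 2 libraries farthest from the median. The young value thus rested on 2 libraries. With the podocyte markers they ran the other way, at -0.68, -0.61 and -0.50 (Spearman -0.60, -0.86 and -0.57), and at -0.38, -0.87 and -0.77 without the 2 farthest. With the mean of complex I genes they were 0.97 in each group (Spearman 1.00, 0.89 and 0.95), and 0.93, 0.89 and 0.94 without the 2 farthest. With the cytosolic ribosome they were -0.24, 0.17 and 0.07 (Spearman -0.37, 0.11 and 0.00), and -0.32, 0.82 and -0.08 without the 2 farthest. The groups hold 6, 7 and 8 libraries, and no test was made.

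With the proximal tubule score as a covariate, 0 members were called between NLRP3i and saline libraries by edgeR's quasi-likelihood test, the median log2 fold change was 0.10 and 64 of 77 were above 0. Of all 16377 genes tested, 431 were called higher in that comparison. The proximal tubule score ran from 6.36 to 7.64 in saline and from 7.10 to 8.37 in NLRP3i libraries. Group and this score thus overlapped only in part, and the fit cannot fully tell them apart. The members' counts became 12 of 77 with age, near the share of all genes (2743 of 16377), and 23 in NLRP3i against young libraries (3457 of 16377). With the podocyte score as a covariate, by contrast, 60 members were higher in NLRP3i than in saline libraries (median 0.41), 0 in NLRP3i against young (median 0.12), and with age 0 were higher and the median turned to -0.28, with 6 of 77 above 0. Of all 16377 genes tested, 2643, 138 and 14 were called higher in these 3 comparisons, so few genes of any kind kept a call against young libraries. The podocyte score ran from 4.06 to 5.49 in young and from 2.34 to 3.64 in saline libraries, without overlap, so group and this score cannot be told apart there. In NLRP3i libraries it ran from 3.28 to 4.25, so they overlapped the young ones only between 4.06 and 4.25, and the same limit largely holds for that comparison. How much of the family's rise goes with cell composition was not tested beyond these fits.

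**Figure D5:**
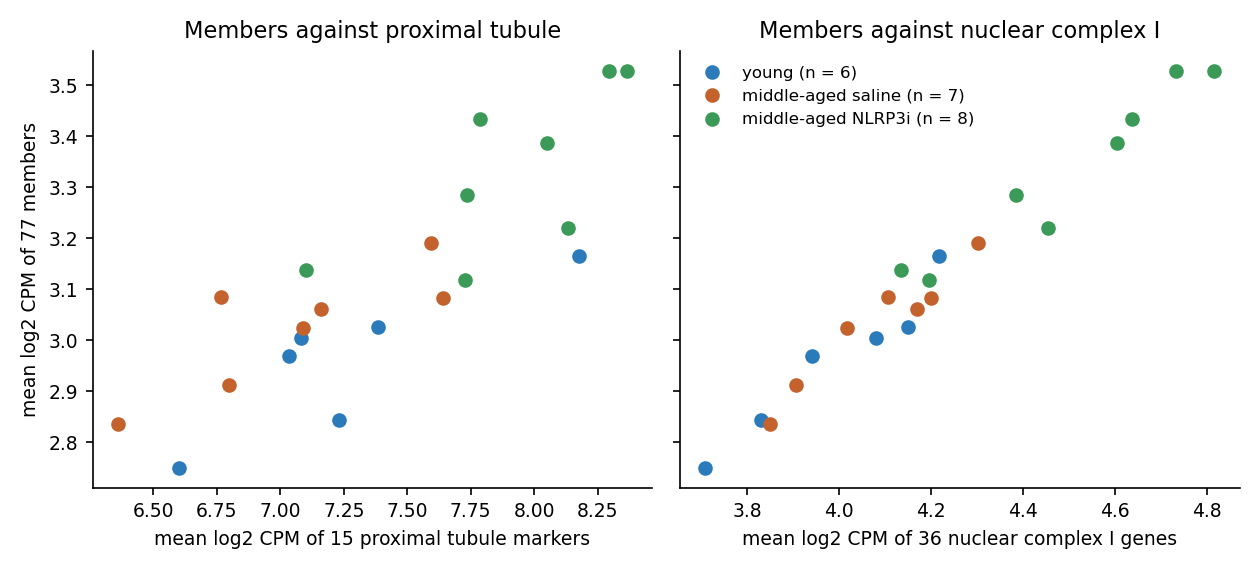
Mean log2 CPM of the 77 members (vertical axes) against the mean of 15 proximal tubule markers (left) and of 36 nuclear complex I genes (right), 1 point per library, by group. Pearson correlations within groups are 0.73 to 0.86 on the left, where the young value is 0.05 without 2 libraries, and 0.97 on the right.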

How the data were processed

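mRNA was sequenced from the podocyte fraction of each of 21 mice, and samples were grouped by their labels into 6 young, 7 saline and 8 NLRP3i libraries. The authors trimmed reads with Trim Galore, aligned them to mm10 (GRCm38) with Bowtie2 and deposited raw counts per gene from featureCounts, listed by Entrez number. The annotation release, the strand setting and the handling of reads with several alignments are not given in the sources used here. The deposited table of normalised values was not used.

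RefSeq gave symbols for 25275 Entrez numbers and GENCODE for another 18, while 1886 stayed unnamed. Genes that passed filterByExpr (16377) were tested in one fit over all libraries, with TMM scaling and edgeR 4.0.16's quasi-likelihood test in R 4.3.3, and p-values were adjusted over all of them (Benjamini-Hochberg, threshold 0.05). An SE is the log2 fold change divided by the root of F. Marker scores were mean log2 CPM (prior count 2). DESeq2 1.42.0 and 10 further settings, including leaving out each library, were alternatives. For thinning, mitochondrial genes were left out and each library was cut at random to about 5804891 counts. The workflow was tested on simulated data. Counts per library, from 27375870 to 84876399 in all and from 5804891 to 28569185 outside mitochondrial genes, limit the precision. The p-values measure the spread between mice. No library duplicated another (lowest chi-square per degree of freedom 16.7 within groups).

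The family, its gene lists and the marker lists were chosen with earlier results of these data known. Named members are the 5 largest rises and falls that passed in each comparison, the 3 highest and 3 lowest per length, the *Mrps18* trio, the stalk genes, *Mrps30* and *Mrps36*, any at the count threshold, and those whose groups did not overlap. From each further list the 2 genes of smallest adjusted p were eligible. *Mrpl35*, *Mrpl46*, *Mrps14*, *Mrps17*, *Mrpl1* and the promoter partners were named after their values were seen. Protein sequences were not analysed here. Python 3.11.15, pandas 2.3.3, numpy 2.4.6 and matplotlib were used.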

Additional observations from a re-analysis of the deposited data

Results flagged for a closer look

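In 3 of 93 groups of libraries checked, 1 library lay far from the rest by Dixon's criterion, where chance alone flags about 1 in 20. *Mrpl21* stood at 1.46 normalised CPM in young replicate 5, while the other young libraries lay between 0.563 and 0.796. *Mrpl3* stood at 6.20 CPM in young replicate 2, below the other young libraries at 7.29 to 7.80. *Mrpl36* stood at 0.0646 CPM in young replicate 3, on 2 counts, with the other young libraries at 0.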

How the results depend on the processing

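The count of members called higher with age (3) was 1 in libraries thinned to equal depth, 12 with the proximal tubule score and 0 with the podocyte score as a covariate. Over all genes tested it was 1996 in the main fit and 1821, 2743 and 14 in these settings. With 1 library left out the members' count ran from 2 (without young replicate 2, among others) to 6 (without young replicate 1). Over all genes tested it was 1551 of 16508 without young replicate 2 and 1705 of 16475 without young replicate 1. The count called lower with age (0) was 1 with DESeq2 and ran from 0 to 2 with 1 library left out. The count higher in NLRP3i against saline libraries (44) was 27 when thinned and 0 with the proximal tubule score, and ran from 26 (without saline replicate 3) to 53 (without NLRP3i replicate 6). Over all genes tested it was 1957 in the main fit and 1109, 431, 1149 and 2288 in these settings. Without saline replicate 6, which the deposited normalised table lacks, 33 members were called higher, beside 1297 of 16323 genes. Against young libraries the count of members higher in NLRP3i libraries (60) was 23 with the proximal tubule and 0 with the podocyte score, beside 3457 and 138 of 16377 genes. With 1 library left out it ran from 40 (without young replicate 4) to 61 (without young replicate 1, among others), beside 2556 of 16506 and 3725 of 16475 genes. The podocyte score turned *Mrpl24* to -0.00128 and *Mrpl33* to -0.21 with age. The scores hold RNA of the cells compared, and the cause of these shifts was not tested. Of 44 calls of named members, 31 held when thinned, 19 with the proximal tubule and 18 with the podocyte score, and 41 to 44 under each other setting in which no library was left out. Other scalings, filters, DESeq2, both groups alone and mitochondrial genes left out kept the members' medians above 0.

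Replicate numbers did not pair the samples: same-numbered libraries had correlations of deviations from -0.061 to 0.35, from -0.14 to 0.33 and from -0.013 to 0.40. With the replicate block 4, 51 and 61 members were higher, of which 2, 43 and 59 were among those called without it. Over all 16377 genes tested, 2219, 2381 and 3857 were higher with the block, and 1996, 1957 and 3572 without it. Depth limits the lowest members most, with SEs up to 0.32.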
